A study of Mus musculus with 8 samples.

Results

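The 2 mouse embryonic stem cell lines that carry a mutation in Gtf2i were compared with the 2 lines of the same series in which Gtf2i is intact, 4 arrays against 4. A gene was kept when all 4 arrays of one side lay above all 4 of the other, and the gap between sides was the distance, in log2 intensity (Affymetrix arrays, RMA values, 1 unit being a 2-fold difference), from the lowest array of the high side to the highest array of the low side. Of 18193 genes measured, each read from its brightest probe set, 1484 were kept. They were 616 genes higher in the mutant lines (3.39% of the genes measured) and 868 lower (4.77%). Since this rule chose the genes by the same values, their differences between sides are descriptions and carry no test.

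The mutant side held the exon 2 mutant (genotype label Δexon2/+), a gene-targeted line made from R1 stem cells that lacks exon 2 on an allele of Gtf2i, and the trap line (genotype label HPRT -/-:GTF2I +/-), a gene-trap insertion made in AB2.2 stem cells. The intact side held an Hprt knockout (genotype label HPRT -/-) and wild-type cells. Each side therefore contained a line that was mutant at Hprt, the purine salvage gene, and a line that was not. Each of the 4 lines was represented by 2 arrays, labelled biological replicates without a statement that they were separate cultures. The labels did not name the parent line of the Hprt knockout and wild-type cells. Every line was kept on feeder cells in medium with LIF, the cytokine that holds mouse stem cells in self-renewal. Differences of parent line or of array batch cannot be told apart from the mutations.

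Gtf2i encodes TFII-I, a transcription factor that binds initiator elements and E-boxes and also acts in signalling from growth factor receptors. Its human counterpart is among the genes lost in Williams-Beuren syndrome. Mouse embryonic stem cells hold a balance between a naive state, kept by factors such as Esrrb, Klf4, Klf2, Tbx3 and Tfcp2l1, and early differentiation. The first alternative fate of the inner cell mass is primitive endoderm, which is specified by Gata6 and Sox17 and lays down the laminin and collagen of the first basement membranes.

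The Hprt knockout arrays stood apart from the others, with correlations of 0.866 to 0.920 over the 13812 genes that passed the filter on low values, against 0.967 to 0.979 among the other lines and 0.997 to 0.998 within a line. The filter asked for a value above the array's 40th percentile, on average log2 5.36, on at least 2 arrays. The summed intensity of 30 feeder fibroblast markers lay between 169244 and 186964 on the 4 mutant arrays, against 19563 and 19411 in the Hprt knockout and 266122 and 267078 in wild-type. Feeder signal of both mutant lines thus lay between that of the intact lines, and none of the 30 markers was kept by the rule. All 7 defining markers (Col1a1, Col1a2, Col3a1, Lum, Dcn, Prrx1 and Twist2) lay above the filter level on the mutant and wild-type arrays, while 1 of them lay below it on each Hprt knockout array. The 10 stem cell markers were above the filter level on all 8 arrays, and their summed intensity was 62373 to 65350 on the mutant arrays, against 72177 and 70574 in the Hprt knockout and 54217 and 54615 in wild-type. In bulk RNA fewer cells of a type and less RNA per cell cannot be told apart.

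**Figure D1:**
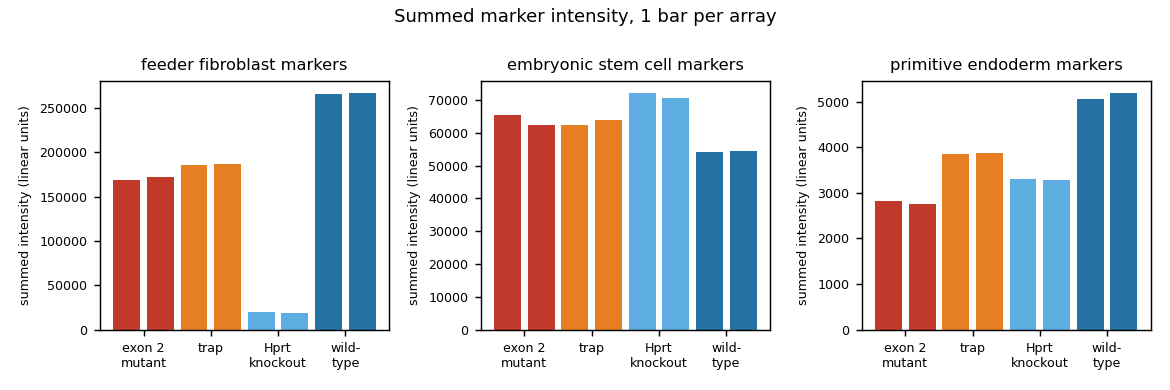
Summed linear intensity of the feeder fibroblast (30 genes), embryonic stem cell (10 genes) and primitive endoderm (8 genes) markers, with 1 bar for each array and the lines in 4 colours. The feeder bars of the exon 2 mutant and the trap line lie far above those of the Hprt knockout and below those of wild-type.

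The targeted genes were read first. Gtf2i had log2 intensities of 10.45 and 10.51 in the exon 2 mutant and 10.11 and 10.07 in the trap line, against 10.92 and 10.89 in the Hprt knockout and 10.10 and 10.14 in wild-type. Its arrays overlapped between sides, because the trap line lay level with wild-type and the exon 2 mutant above it. Hprt had 12.25 and 12.25 in the exon 2 mutant and 10.76 and 10.72 in the trap line, against 10.05 and 10.02 in the Hprt knockout and 12.09 and 12.08 in wild-type. Hprt was low in both lines labelled Hprt mutant, 1 on each side, and was not kept by the rule either. A second bright Gtf2i probe set gave 8.43 and 8.39 in the exon 2 mutant and 7.91 and 7.92 in the trap line, against 9.17 and 9.03 in the Hprt knockout and 7.72 and 7.81 in wild-type. The Hprt knockout was again the highest line and the exon 2 mutant the next. The position of these probes relative to the mutated sites was not analysed, and the Gtf2i values therefore check no genotype label.

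Of the 616 higher genes 586 passed the filter on low values, and of the 868 lower genes 697 passed. Most gaps were small. The median gap was 0.09 for higher and 0.06 for lower genes, and it was below 0.1 in 335 of the higher and 582 of the lower genes. It exceeded the gene's own SD within lines in 358 of 616 higher and 388 of 868 lower genes. A gap of at least 0.5 was reached by 36 higher (0.198% of the genes measured) and 23 lower genes (0.126%), and a gap of at least 1 by 5 higher and 2 lower genes. Without wild-type replicate 2 the lower genes numbered 1322.

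With the line taken as the unit that differs in Gtf2i, no gene of the 13812 passed. In limma with the line as a random block, 0 genes were called at an adjusted p of 0.05, and 213 had an unadjusted p under 0.05 (1.54% of the genes tested). Limma on the 4 line means also called 0, with 116 at an unadjusted p under 0.05. A contrast of the 4 group means, whose error is only the spread between arrays of a line, called 6951 genes, 3552 higher and 3399 lower. An exact permutation test of 2 lines against 2 cannot go below p = 0.33. The genes given here therefore describe these 4 lines. Adjusted p-values are by Benjamini-Hochberg.

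Among the genes higher in the mutant lines, the largest gap was that of Mid1. This gene, annotated to the X chromosome, encodes a microtubule-bound ubiquitin ligase. Its log2 intensities were 10.74 and 10.59 in the exon 2 mutant and 9.27 and 9.33 in the trap line, against 6.40 and 6.55 in the Hprt knockout and 7.42 and 7.59 in wild-type. The exon 2 mutant lay highest and the Hprt knockout lowest, with a gap of 1.68, a mean of 9.98 ± 0.79 against 6.99 ± 0.61 (mutant against intact side, SD, n = 4 arrays from 2 lines each) and a difference of 2.99. A further probe set of Mid1, at a mean level of 6.04, had a gap of 0.65 in the same direction, and another below the filter level overlapped.

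Trpm1, which encodes a cation channel of the melastatin family known from retinal bipolar cells, had 9.57 and 9.55 in the exon 2 mutant and 8.89 and 8.88 in the trap line, against 7.25 and 7.24 in the Hprt knockout and 6.69 and 7.14 in wild-type. Both intact lines were well below the mutant lines, wild-type lowest, and the gap was 1.63 (difference 2.14). The other 3 probe sets of Trpm1 had mean levels of 3.63 to 4.93, below the filter level, and overlapped between sides. Eno2, the neuronal form of the glycolytic enzyme enolase, had 6.73 and 6.74 in the exon 2 mutant and 6.82 and 6.84 in the trap line, against 5.09 and 5.26 in the Hprt knockout and 5.56 and 5.54 in wild-type. The 4 mutant arrays lay close together, and the Hprt knockout arrays lay below the filter level, near array background. The gap was 1.17 and the difference 1.42.

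Crxos, a homeobox gene, had 9.03 and 9.02 in the exon 2 mutant and 8.86 and 8.90 in the trap line, against 7.84 and 7.71 in the Hprt knockout and 7.68 and 7.87 in wild-type, so that the lines of each side lay close together on both sides of a gap of 0.99. Msrb2, a mitochondrial enzyme that repairs oxidised methionine, showed the same tight arrangement at 9.17 and 9.32 in the exon 2 mutant and 9.12 and 9.13 in the trap line, against 8.15 and 8.23 in the Hprt knockout and 8.12 and 8.11 in wild-type, with a gap of 0.89. Irak3, an inhibitor of Toll-like receptor and interleukin-1 signalling, had 8.37 and 8.30 in the exon 2 mutant and 8.01 and 7.96 in the trap line, against 7.21 and 7.01 in the Hprt knockout and 7.02 and 6.96 in wild-type (gap 0.75), and its other probe set above the filter level overlapped. In these 3 genes the differences between side means were 1.18, 1.03 and 1.11.

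Tbx3, a T-box factor of the naive pluripotency network, had 10.66 and 10.77 in the exon 2 mutant and 10.73 and 10.74 in the trap line, against 9.96 and 9.93 in the Hprt knockout and 9.92 and 9.99 in wild-type. The 4 arrays of each side spanned about 0.1, with a gap of 0.67, and of the other 2 Tbx3 probe sets above the filter level 1 had a gap of 0.54 and 1 overlapped. Gli2, a transcription factor of Hedgehog signalling, had 10.53 and 10.37 in the exon 2 mutant and 10.15 and 10.10 in the trap line, against 9.44 and 9.38 in the Hprt knockout and 9.42 and 9.43 in wild-type (gap 0.66), and its second probe set had a gap of 0.47. Ccng2, an atypical cyclin tied to growth arrest, had 9.20 and 9.001 in the exon 2 mutant and 9.21 and 9.25 in the trap line, against 8.16 and 7.95 in the Hprt knockout and 8.33 and 8.31 in wild-type (gap 0.67), and 0.22 on its second probe set.

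Irs1, the adaptor that links insulin and IGF receptors to PI3-kinase, had 10.36 and 10.40 in the exon 2 mutant and 10.41 and 10.41 in the trap line, against 6.79 and 6.78 in the Hprt knockout and 9.66 and 9.71 in wild-type. The 2 mutant lines were level, wild-type was lower and the Hprt knockout, whose feeder signal was also the lowest, was far lower. Its difference between side means of 2.16 therefore holds a large share from the Hprt knockout, while the gap of 0.65 is set by wild-type. Tmem140 had the same shape, with line means of 7.62 in the exon 2 mutant and 8.03 in the trap line, against 4.53 in the Hprt knockout and 6.75 in wild-type. Ampd3, an AMP deaminase of purine breakdown, had line means of 8.42 in the exon 2 mutant and 8.38 in the trap line, against 7.06 in the Hprt knockout and 7.64 in wild-type (gap 0.65). The part of the feeder signal in these genes was not tested. Tmem74, Mia and Zfp619 completed the 15 largest gaps, at 0.71, 0.69 and 0.66, when clone and predicted names and genes with a mean below the filter level are left out. Among those left out were the other 2 higher genes with a gap of at least 1, Gm20767 (1.42) and 1700097N02Rik (1.12).

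Among the genes lower in the mutant lines, the largest gap was that of Srgn, the core protein of the secreted proteoglycan serglycin. Its intensities were 7.55 and 7.46 in the exon 2 mutant and 8.15 and 8.23 in the trap line, against 10.56 and 10.47 in the Hprt knockout and 9.63 and 9.81 in wild-type. The lines stood in 4 steps, with a gap of 1.40, a mean of 7.85 ± 0.40 against 10.12 ± 0.47 (mutant against intact side, SD, n = 4 arrays from 2 lines each) and a difference of -2.27. Lama1, the laminin alpha-1 chain of the earliest basement membranes, stood in the same order at 7.36 and 7.22 in the exon 2 mutant and 7.60 and 7.60 in the trap line, against 9.60 and 9.60 in the Hprt knockout and 8.78 and 8.81 in wild-type. Its gap was 1.18 and its difference -1.75.

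Cubn, the endocytic receptor cubilin of visceral endoderm, had 5.62 and 5.84 in the exon 2 mutant and 6.24 and 5.93 in the trap line, against 8.71 and 8.74 in the Hprt knockout and 7.16 and 7.10 in wild-type. The Hprt knockout lay well above wild-type, the gap was 0.87, and a second probe set of Cubn gave a gap of 0.62. Pth1r, the receptor for parathyroid hormone and its related peptide, had 6.18 and 5.97 in the exon 2 mutant and 5.76 and 6.29 in the trap line, against 7.36 and 7.28 in the Hprt knockout and 7.18 and 7.39 in wild-type, with both intact lines level and a gap of 0.89. Fgfbp1, which encodes a secreted FGF-binding protein, had 6.53 and 6.18 in the exon 2 mutant and 7.78 and 7.58 in the trap line, against 9.34 and 9.29 in the Hprt knockout and 8.53 and 8.61 in wild-type (gap 0.76). Here the trap line lay above the exon 2 mutant by more than 1 log2 unit and still below both intact lines.

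The keratin gene Krt18 had 5.90 and 5.82 in the exon 2 mutant and 6.12 and 6.31 in the trap line, against 9.28 and 9.30 in the Hprt knockout and 7.09 and 7.27 in wild-type. Its partner Krt8 had 6.39 and 5.86 in the exon 2 mutant and 7.33 and 7.35 in the trap line, against 10.17 and 10.18 in the Hprt knockout and 7.75 and 7.89 in wild-type. Both were highest in the Hprt knockout by about 2 log2 units over wild-type, so that their gaps of 0.78 and 0.39 were set by wild-type. Cyp26a1, the enzyme that degrades retinoic acid, had 5.47 and 5.69 in the exon 2 mutant and 5.50 and 5.599 in the trap line, against 7.06 and 7.03 in the Hprt knockout and 6.62 and 6.41 in wild-type (gap 0.73). Bpgm, the enzyme that makes bisphosphoglycerate, had 7.89 and 7.83 in the exon 2 mutant and 7.85 and 8.002 in the trap line, against 8.88 and 8.70 in the Hprt knockout and 8.79 and 8.93 in wild-type, and all 3 of its probe sets were kept apart by the sides, with gaps of 0.70, 0.63 and 0.76.

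With the same genes left out, the others among the 15 largest gaps were Rcsd1 (0.79), Acta1, the skeletal muscle alpha-actin (0.67), Srp54b, a signal recognition particle subunit (0.59), Fxyd3, a regulator of the sodium pump (0.58), the Y-linked Usp9y (0.58), the transcriptional co-regulator Cited1 (0.56) and Jmjd4 (0.56). Jmjd4 had line means of 7.31 in the exon 2 mutant and 7.62 in the trap line, against 8.25 in the Hprt knockout and 8.21 in wild-type, and its second probe set had a gap of 0.62. For Rcsd1 the other probe set above the filter level overlapped between sides.

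**Figure D2:**
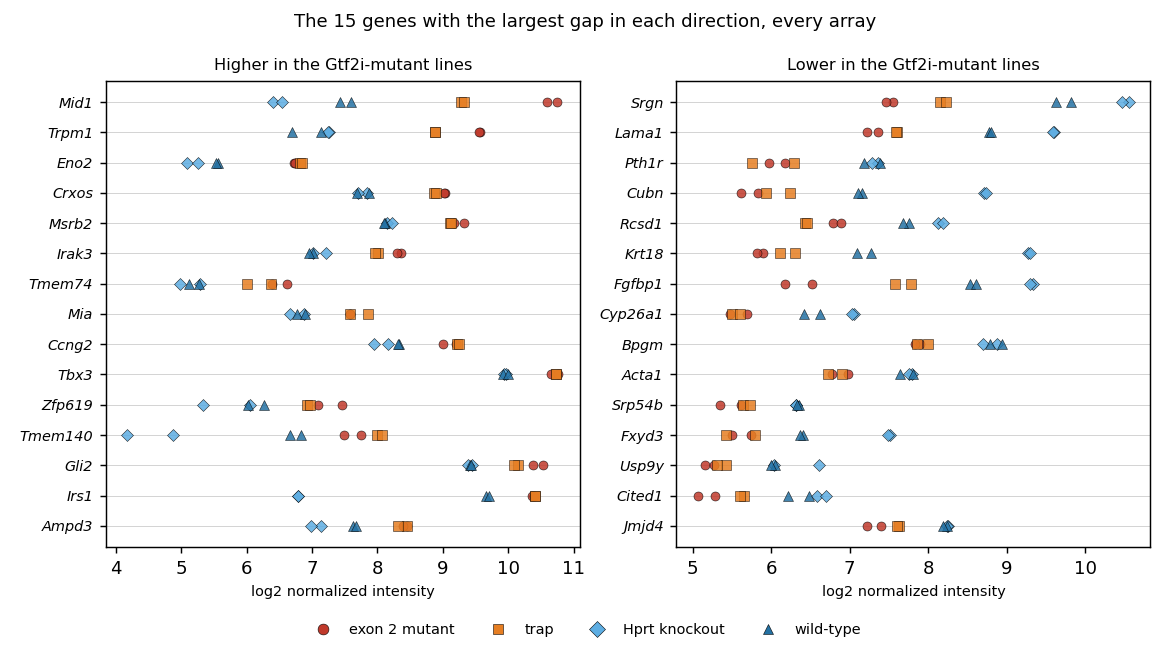
Log2 normalized intensity on every array for the 15 genes with the largest gap that were higher (left) and the 15 that were lower (right) in the Gtf2i-mutant lines, clone and predicted names and dim genes left out, with 1 symbol for each array. No symbol of the mutant lines (exon 2 mutant and trap) overlaps one of the intact lines (Hprt knockout and wild-type), since the genes were chosen for this, and the Hprt knockout is the most distant line for Irs1, Tmem140 and Krt18.

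The promoters of the 3 genes with the largest gap in each direction that had an entry are shown because these genes head the named genes, clone and predicted names and dim genes left out. They are the first RefSeq entry of each gene in GRCm38.p6, from 250 bases before to 50 after the start, 5′ to 3′. Capitals mark matches, on either strand, to 6 motifs. They are CACGTG, a form of the E-box, and AGATAA, which zinc finger factors of endoderm such as Gata6 bind. The others are ATGCAAAT, known as the octamer of POU factors, then TATAAA, an element of core promoters, CCAAT, which NF-Y binds, and lastly GGGCGG, known as the Sp1-type GC box.
Mid1 promoter, chrX:169684949-169685248, plus strand: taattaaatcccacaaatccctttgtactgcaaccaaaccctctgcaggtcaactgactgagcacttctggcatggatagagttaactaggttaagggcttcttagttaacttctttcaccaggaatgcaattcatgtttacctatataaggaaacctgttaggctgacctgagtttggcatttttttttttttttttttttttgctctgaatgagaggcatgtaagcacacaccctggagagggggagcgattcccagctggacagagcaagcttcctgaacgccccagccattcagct
Trpm1 promoter, chr7:64153585-64153884, plus strand: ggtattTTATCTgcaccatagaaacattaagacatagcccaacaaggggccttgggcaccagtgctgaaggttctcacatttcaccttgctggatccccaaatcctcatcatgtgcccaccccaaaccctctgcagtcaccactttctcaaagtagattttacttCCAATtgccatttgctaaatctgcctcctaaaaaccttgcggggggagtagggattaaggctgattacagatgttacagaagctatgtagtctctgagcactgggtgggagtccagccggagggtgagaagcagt
Eno2 promoter, chr6:124769624-124769923, minus strand: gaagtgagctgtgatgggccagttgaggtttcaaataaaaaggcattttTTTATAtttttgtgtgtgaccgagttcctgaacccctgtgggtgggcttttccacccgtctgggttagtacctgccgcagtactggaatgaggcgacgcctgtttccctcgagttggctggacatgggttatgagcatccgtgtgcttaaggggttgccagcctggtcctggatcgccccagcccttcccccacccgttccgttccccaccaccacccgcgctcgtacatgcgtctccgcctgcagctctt
Srgn promoter, chr10:62527396-62527695, minus strand: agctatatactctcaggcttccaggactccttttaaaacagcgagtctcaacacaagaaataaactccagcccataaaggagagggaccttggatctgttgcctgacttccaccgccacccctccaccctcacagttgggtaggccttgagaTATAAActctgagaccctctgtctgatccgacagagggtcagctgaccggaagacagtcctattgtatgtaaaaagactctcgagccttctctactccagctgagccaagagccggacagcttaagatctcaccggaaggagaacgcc
Pth1r promoter, chr9:110747096-110747395, minus strand: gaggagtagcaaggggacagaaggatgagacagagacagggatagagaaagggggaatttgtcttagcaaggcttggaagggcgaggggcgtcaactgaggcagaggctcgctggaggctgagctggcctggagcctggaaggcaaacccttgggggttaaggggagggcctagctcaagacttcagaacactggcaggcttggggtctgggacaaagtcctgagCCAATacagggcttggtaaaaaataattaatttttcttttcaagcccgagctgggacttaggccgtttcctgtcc
Cubn promoter, chr2:13491827-13492126, minus strand: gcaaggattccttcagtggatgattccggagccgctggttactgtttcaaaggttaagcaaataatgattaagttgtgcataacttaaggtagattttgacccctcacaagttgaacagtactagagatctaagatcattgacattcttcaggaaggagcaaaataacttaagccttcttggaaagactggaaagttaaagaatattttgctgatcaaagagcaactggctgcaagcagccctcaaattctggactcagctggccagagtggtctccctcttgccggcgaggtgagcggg
No CACGTG, octamer or GC box was found in these 6 windows, which says only that these letters are not there. Other forms of the E-box were not searched. Trpm1 held 1 GATA and 1 CCAAT match, Eno2 and Srgn 1 TATAAA match each and Pth1r 1 CCAAT match, and Mid1 and Cubn held none. Among the 506 higher genes with a promoter 11.1% held CACGTG, as did 11.5% of the 686 lower genes and 9.02% of all 14452 measured genes with one. GGGCGG was found in 64.6% of higher, 51.0% of lower and 54.0% of all promoters. TATAAA was found in 5.73% of higher, 11.2% of lower and 9.87% of all. AGATAA was found in 6.92%, 8.89% and 8.13%, the octamer in 1.38%, 1.46% and 1.49%, and CCAAT in 38.7%, 34.3% and 38.2% in the same order. None of these motifs contains another, though the ends of neighbouring matches can overlap.

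Of 23 measured primitive endoderm genes 8 were lower in the mutant lines without overlap (34.8%, against 4.77% of all genes) and 1 was higher. Side means were lower in 17 of the 23, and the list's median difference was -0.32 against -0.03 over all genes. Without the Hprt knockout line, as without the wild-type line, 13 were lower, and without the trap or the exon 2 mutant line 11 and 9. Fewer arrays leave less to overlap. Of all 18193 genes 2932, 6227, 2509 and 2622 were lower in these settings in the same order, against 868 with every line. Srgn, Lama1 and Cubn, given above, had the largest gaps, followed by Foxa2, a forkhead factor of endoderm, at 5.09 and 5.61 in the exon 2 mutant and 5.53 and 5.397 in the trap line, against 6.53 and 6.76 in the Hprt knockout and 6.09 and 6.13 in wild-type (gap 0.48). The lower Foxa2 array of the exon 2 mutant lay below the filter level. The remaining lower genes were looked at after their values were seen. The fate regulator Gata6 had 6.91 and 6.91 in the exon 2 mutant and 7.19 and 7.18 in the trap line, against 7.91 and 7.99 in the Hprt knockout and 7.65 and 7.62 in wild-type, and its gap was 0.44. Sox17, an endoderm transcription factor below the filter level in the exon 2 mutant, had 4.93 and 5.27 in the exon 2 mutant and 5.58 and 5.87 in the trap line, against 7.01 and 6.92 in the Hprt knockout and 6.28 and 6.22 in wild-type (gap 0.35). Amn, the membrane anchor of cubilin, had line means of 5.75 in the exon 2 mutant and 6.09 in the trap line, against 7.87 in the Hprt knockout and 6.79 in wild-type (gap 0.45), and the laminin chain Lamc1 had a gap of 0.08. Apart from Lamc1, each of these genes had its highest level in the Hprt knockout, then wild-type, and its lowest in the exon 2 mutant.

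The other members of the list did not separate the sides. Gata4, Sox7, Hnf4a, Dab2, Lrp2, Col4a1 and Afp were among the 14 that overlapped, and Pdgfra, which fibroblasts also express, was higher with line means of 9.65 in the exon 2 mutant and 10.14 in the trap line, against 7.57 in the Hprt knockout and 9.47 in wild-type. The summed intensity of 8 primitive endoderm markers was 2762 to 3870 on the mutant arrays, against 3302 and 3271 in the Hprt knockout and 5044 and 5189 in wild-type, so that the sum overlapped between sides. The feeder sum was lowest in the Hprt knockout and highest in wild-type, and its part in these genes was not tested.

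Of 26 measured genes of the naive pluripotency network 8 were higher in the mutant lines without overlap (30.8%, against 3.39% of all genes) and 1 was lower. Side means were higher in 17 of the 26, and the list's median difference was 0.08. Without the Hprt knockout, wild-type, trap or exon 2 mutant line 18, 10, 11 and 9 were higher. Of all 18193 genes 4062, 3396, 1896 and 2456 were higher in these settings, against 616 with every line. After Tbx3, the largest gap was that of Esrrb, a nuclear receptor that sustains self-renewal, with 10.54 and 10.61 in the exon 2 mutant and 10.59 and 10.54 in the trap line, against 10.23 and 10.19 in the Hprt knockout and 9.98 and 9.91 in wild-type (gap 0.31). Another Esrrb probe set, at a mean level of 8.92, overlapped between sides, and a dimmer one, at 6.60, had a gap of 0.16. Klf2, a Krüppel-like factor of the naive state, had 11.31 and 11.37 in the exon 2 mutant and 11.39 and 11.28 in the trap line, against 10.998 and 10.96 in the Hprt knockout and 10.15 and 10.19 in wild-type (gap 0.28). Tcl1, a co-activator of AKT, had 10.57 and 10.64 in the exon 2 mutant and 10.28 and 10.19 in the trap line, against 9.48 and 9.38 in the Hprt knockout and 9.90 and 9.93 in wild-type (gap 0.26). Wild-type was the lowest line for Esrrb and Klf2 and the Hprt knockout for Tcl1. The LIF target Klf4 had 11.84 and 11.79 in the exon 2 mutant and 12.35 and 12.32 in the trap line, against 11.40 and 11.43 in the Hprt knockout and 11.53 and 11.51 in wild-type (gap 0.26). Tfcp2l1, also induced by LIF, had 10.34 and 10.38 in the exon 2 mutant and 10.83 and 10.83 in the trap line, against 9.73 and 9.64 in the Hprt knockout and 10.11 and 10.10 in wild-type (gap 0.24). Klf4 and Tfcp2l1 were highest in the trap line. Nr0b1 and Zfp42 completed the 8 with gaps of 0.05 and 0.005. The core factors Pou5f1, Sox2 and Nanog overlapped between sides, with differences of -0.07, 0.09 and -0.07. Gdf3, a TGF-beta family ligand, was lower with a gap of 0.08, and its other probe set overlapped.

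**Figure D3:**
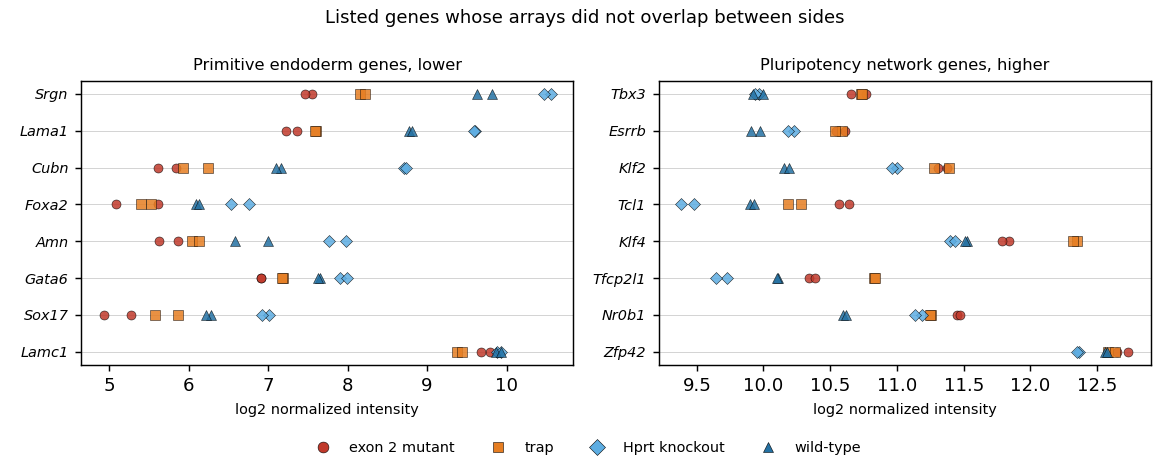
Log2 normalized intensity on every array for the 8 primitive endoderm genes that were lower (left) and the 8 pluripotency network genes that were higher (right) in the mutant lines without overlap. The gaps run from 1.40 for Srgn to 0.08 for Lamc1 on the left and from 0.67 for Tbx3 to 0.005 for Zfp42 on the right.

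PI3K-AKT pathway genes were higher in 6 of 29 cases (20.7%, against 3.39% of all genes) and lower in 2 (6.9%, against 4.77%). Their median difference was 0.09. The 6 higher genes were 5 with the probe set of largest SD and 4 with the mean of probe sets. They became 15 without the wild-type line, 10 without the Hprt knockout or the exon 2 mutant line and 7 without the trap line. Of all 18193 genes 3396, 4062, 2456 and 1896 were higher in these settings in the same order, against 616 with every line. Besides Irs1 and Tcl1 came Pik3r1, the regulatory subunit of PI3-kinase, with 9.10 and 9.14 in the exon 2 mutant and 10.10 and 9.85 in the trap line, against 8.12 and 7.97 in the Hprt knockout and 8.56 and 8.67 in wild-type (gap 0.44). Pik3ip1, an inhibitor of the kinase, had 7.82 and 7.44 in the exon 2 mutant and 7.96 and 7.97 in the trap line, against 7.0 and 6.89 in the Hprt knockout and 6.71 and 6.70 in wild-type (gap 0.44). Pik3r1 was highest in the trap line, and of its other 3 probe sets above the filter level 2 had gaps of 0.48 and 0.02 and 1 overlapped. Foxo3 and Gsk3b had gaps below 0.1, and Irs2, the second insulin receptor substrate, was lower with a gap of 0.20. The other Foxo3 probe sets above the filter level overlapped. A further Gsk3b probe set had a gap of 0.05, and the rest of its probe sets overlapped. The catalytic subunit genes Pik3ca and Pik3cd, Akt1, Akt2 and Mtor overlapped.

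Hypoxia and glycolysis genes were higher in 5 of 31 cases (16.1%, against 3.39% of all genes) and none was lower, with a median difference of 0.26. Of the 31, 20 were higher without the trap line, 14 without wild-type, 9 without the Hprt knockout and 5 without the exon 2 mutant. Of all 18193 genes 1896, 3396, 4062 and 2456 were higher in these settings, against 616 with every line. After Eno2 came Egln3, a prolyl hydroxylase induced by hypoxia, with 8.93 and 8.75 in the exon 2 mutant and 7.79 and 7.91 in the trap line, against 7.17 and 7.25 in the Hprt knockout and 7.08 and 7.08 in wild-type (gap 0.54), and the hexokinase gene Hk1, with a gap of 0.19. Egln3 was higher in the exon 2 mutant than in the trap line by about 1 log2 unit. Its second probe set had a gap of 0.12, and the other probe set of Hk1 overlapped. Pfkp, a phosphofructokinase, and Aldoa, an aldolase, had gaps of 0.08 and 0.04.

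Immediate early genes were lower in 6 of 25 cases (24.0%, against 4.77% of all genes) and none was higher, with a median difference of -0.12. Without the Hprt knockout, wild-type, trap or exon 2 mutant line 19, 8, 8 and 9 were lower. Of all 18193 genes 2932, 6227, 2509 and 2622 were lower in these settings, against 868 with every line. Fos, a growth-factor-induced gene whose promoter TFII-I is known to bind, had 7.49 and 7.53 in the exon 2 mutant and 7.44 and 7.66 in the trap line, against 8.24 and 8.05 in the Hprt knockout and 9.13 and 9.32 in wild-type. Both mutant lines were level and wild-type was the highest line, with a gap of 0.39 and a difference of -1.15. Arc had 6.60 and 6.47 in the exon 2 mutant and 6.65 and 6.40 in the trap line, against 7.03 and 7.06 in the Hprt knockout and 7.33 and 7.20 in wild-type (gap 0.39). The anti-proliferative gene Btg2 had 9.87 and 10.11 in the exon 2 mutant and 10.37 and 10.18 in the trap line, against 11.37 and 11.42 in the Hprt knockout and 10.78 and 10.72 in wild-type (gap 0.36), with a gap of 0.40 on its second probe set. Jund had a gap of 0.21, and Ier2 and Nr4a1 had gaps of 0.17 and 0.06. Egr1, Egr2 and Jun overlapped.

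Germ line genes were lower in 5 of 19 cases (26.3%, against 4.77% of all genes) and none was higher. Without the wild-type, exon 2 mutant, trap or Hprt knockout line the lower genes were 10, 9, 5 and 6. Of all 18193 genes 6227, 2622, 2509 and 2932 were lower in these settings, against 868 with every line. Taf7l, an X-linked germ cell form of a TFIID subunit, had 8.96 and 8.85 in the exon 2 mutant and 8.58 and 8.74 in the trap line, against 9.99 and 10.04 in the Hprt knockout and 9.48 and 9.54 in wild-type (gap 0.51). Sycp1, a component of the synaptonemal complex, had 7.88 and 7.62 in the exon 2 mutant and 7.61 and 7.64 in the trap line, against 8.94 and 8.97 in the Hprt knockout and 8.20 and 8.23 in wild-type (gap 0.32). Tex19.1, a regulator of transposons, had a gap of 0.14. Tex101 and Tdrd1 lay below the filter level on average, with gaps of 0.14 and 0.01. Of the primed epiblast list 2 of 14 were lower (14.3%, against 4.77% of all genes), Fgf5 and Etv4. Fgf5, the marker of the primed state, had 4.496 and 4.64 in the exon 2 mutant and 4.65 and 4.69 in the trap line, against 5.67 and 5.87 in the Hprt knockout and 5.45 and 5.41 in wild-type, with all 4 mutant arrays below the filter level and a gap of 0.72. Etv4 had a gap of 0.08, and it overlapped under cyclic loess and with other probe sets.

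Of 42 TGF-beta, Nodal and BMP genes 3 were higher (7.14%, against 3.39% of all genes) and none lower: Lefty2, an inhibitor of Nodal, with line means of 9.59 in the exon 2 mutant and 7.89 in the trap line, against 7.60 in the Hprt knockout and 7.17 in wild-type, Bmp2 and Smad5. Of 29 Wnt genes 3 were higher (10.3%) and 1 lower (3.45%, against 4.77% of all genes). Notum, a secreted Wnt deacylase, had line means of 7.48 in the exon 2 mutant and 8.29 in the trap line, against 6.41 in the Hprt knockout and 7.01 in wild-type (gap 0.41), and Axin2, a target of Wnt signalling, had 7.71 in the exon 2 mutant and 7.93 in the trap line, against 7.11 in the Hprt knockout and 7.19 in wild-type (gap 0.38). Interferon genes had 3 higher of 29 (10.3%, against 3.39% of all genes) and none lower. Stat2 led with a gap of 0.53, beside Irf1 (0.21) and Irf9 (0.05), and the list's median difference was 0.92. Many of these genes are active in fibroblasts too, and the part of the feeder signal, lowest in the Hprt knockout, was not tested. Of 27 genes that earlier studies linked to TFII-I, 2 were higher (Phf21a and Plcg1) and 2 lower (Fos and Atf6), 7.41% in each direction. In the Williams-Beuren interval 1 of 27 was higher (Limk1, gap 0.08) and 1 lower (Pom121, gap 0.04), 3.70% in each direction, which is near the share of all genes.

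**Figure D4:**
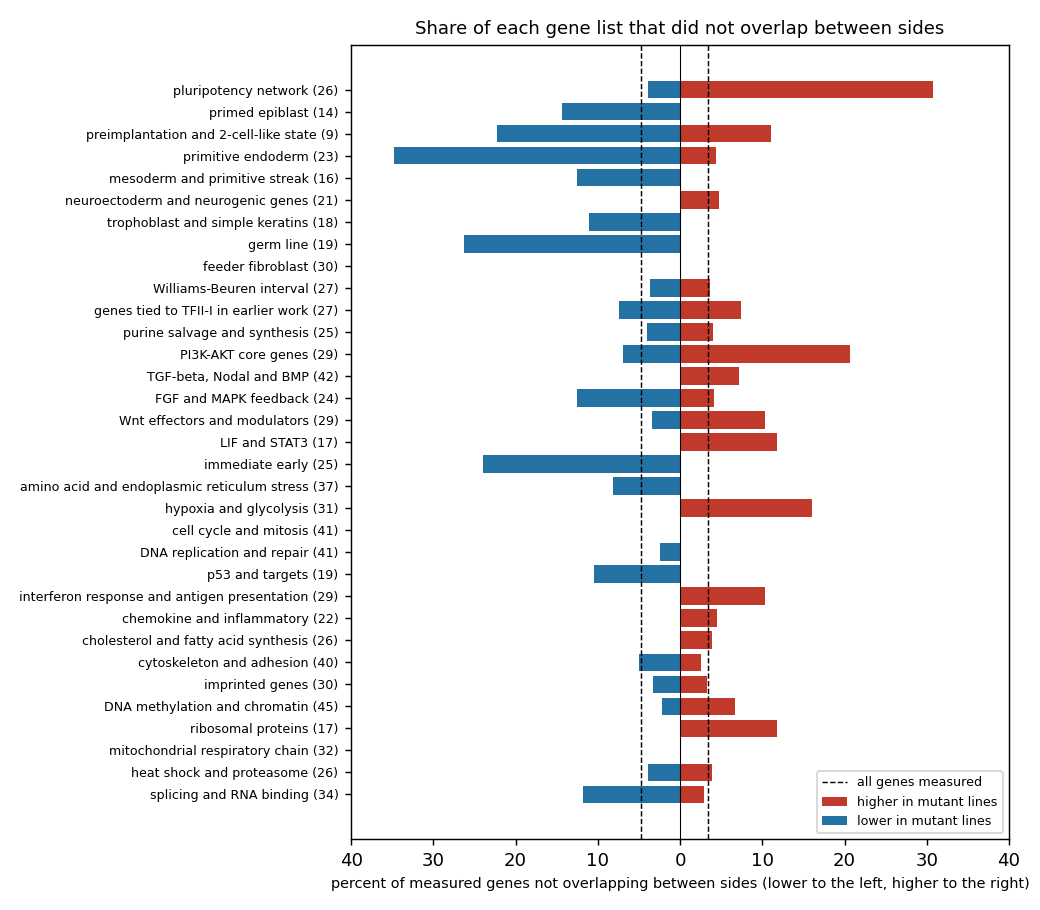
Share of the measured genes of each list, in percent, whose arrays did not overlap between sides, with genes higher in the mutant lines as bars to the right and genes lower as bars to the left, and the number measured in parentheses. Dashed lines mark the shares over all genes, 3.39% higher and 4.77% lower, and the longest bars are those of pluripotency (30.8%, right) and primitive endoderm (34.8%, left).

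The kept genes were then tested for differences the rule did not use, within each side, by limma on 4 group means with adjustment over all genes tested. The exon 2 mutant and the trap line differed in 230 of 586 higher and 194 of 697 lower genes (39.2% and 27.8%), against 49.2% of all genes tested (24.5% higher and 24.7% lower in the exon 2 mutant). The Hprt knockout and wild-type differed in 315 higher and 317 lower genes (53.8% and 45.5%), against 71.5% of all (46.4% higher and 25.1% lower in the Hprt knockout). Lines that spread widely within a side are less likely to be kept by the rule, so lower shares follow from it. In 190 of the 586 higher and 301 of the 697 lower genes neither difference within a side passed. The matching share over all genes tested is not given here, so nothing is read from these counts.

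Between the mutant lines, and among kept genes, the largest differences in favour of the exon 2 mutant were those of Fut9, a fucosyltransferase that makes the SSEA-1 epitope (log2 2.14 ± 0.09, adjusted p = 1.37e-05), Lefty2 (1.69 ± 0.06, adjusted p = 7.82e-06), Mid1 (1.37 ± 0.09, adjusted p = 5.16e-05) and Zmat4 (1.26 ± 0.17, adjusted p = 0.000998; limma, SE, n = 2 against 2 arrays). The largest in favour of the trap line were those of the ligand gene Bmp2 (-2.56 ± 0.11, adjusted p = 1.6e-05), Cd34, a sialomucin of endothelial and progenitor cells (-1.97 ± 0.12, adjusted p = 4.98e-05), Clec14a, an endothelial lectin (-1.64 ± 0.09, adjusted p = 3.21e-05), and Crabp1, a retinoic acid-binding protein (-1.49 ± 0.05, adjusted p = 8.04e-06), by the same limma fit. Fut9 was at 8.31 and 8.06 in the exon 2 mutant and 6.01 and 6.09 in the trap line, against 5.85 and 5.72 in the Hprt knockout and 5.41 and 5.38 in wild-type, so the trap line lay just above the Hprt knockout. Bmp2 was at 6.99 and 6.71 in the exon 2 mutant and 9.32 and 9.51 in the trap line, against 5.82 and 5.63 in the Hprt knockout and 6.59 and 6.60 in wild-type, where the exon 2 mutant lay just above wild-type.

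Between the intact lines, and again among kept genes, the largest differences were lower values in the Hprt knockout, in Cxcl1, a neutrophil chemokine (-5.97 ± 0.05, adjusted p = 3.18e-09), Mcpt8 (-5.13 ± 0.11, adjusted p = 3.58e-08), Il33, a cytokine of stromal cells (-4.70 ± 0.08, adjusted p = 1.57e-08), and Gas1, a growth arrest gene of fibroblasts (-4.55 ± 0.09, adjusted p = 3.44e-08), again by limma. Cxcl1 was at 12.62 and 12.65 in the exon 2 mutant and 12.81 and 12.81 in the trap line, against 6.51 and 6.46 in the Hprt knockout and 12.48 and 12.43 in wild-type. The feeder sum of the Hprt knockout was the lowest of the 4 lines too, and its part was not tested. Krt8 (2.36 ± 0.15, adjusted p = 9.65e-06), Krt18 (2.11 ± 0.09, adjusted p = 1.05e-06), Dpys, a pyrimidine-degrading enzyme (1.83 ± 0.07, adjusted p = 7.99e-07), and Piwil4 (1.78 ± 0.14, adjusted p = 2.1e-05) had the largest differences in favour of the Hprt knockout in limma.

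The Hprt knockout was the intact line farther from the mutant side in 365 of 616 higher genes and in 598 of 868 lower genes, where wild-type lay nearer (59.3% and 68.9%). The trap line was the nearer mutant line in 306 higher and 534 lower genes (49.7% and 61.5%). Median differences of the higher genes were 0.40 for exon 2 mutant minus Hprt knockout, 0.32 for exon 2 mutant minus wild-type, 0.41 for trap minus Hprt knockout and 0.36 for trap minus wild-type. For the lower genes they were -0.37, -0.26, -0.30 and -0.22 in the same order. The difference between the line effects, exon 2 mutant minus wild-type less trap minus Hprt knockout, passed in 331 higher and 289 lower genes (56.5% and 41.5%), against 69.7% of all genes tested (42.6% positive and 27.1% negative). Its largest values among kept genes were positive in Fut9 (2.53 ± 0.13, adjusted p = 3.48e-06), Lefty2 (2.13 ± 0.08, adjusted p = 1.08e-06), Dpys (1.90 ± 0.10, adjusted p = 4.19e-06) and Tktl1, a transketolase-like gene (1.89 ± 0.09, adjusted p = 1.95e-06), and negative in Cxcl1 (-6.14 ± 0.07, adjusted p = 1.94e-08), Mcpt8 (-6.03 ± 0.15, adjusted p = 1.34e-07), Il33 (-5.36 ± 0.11, adjusted p = 6.56e-08) and Gas1 (-4.83 ± 0.13, adjusted p = 2.04e-07) by limma.

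**Figure D5:**
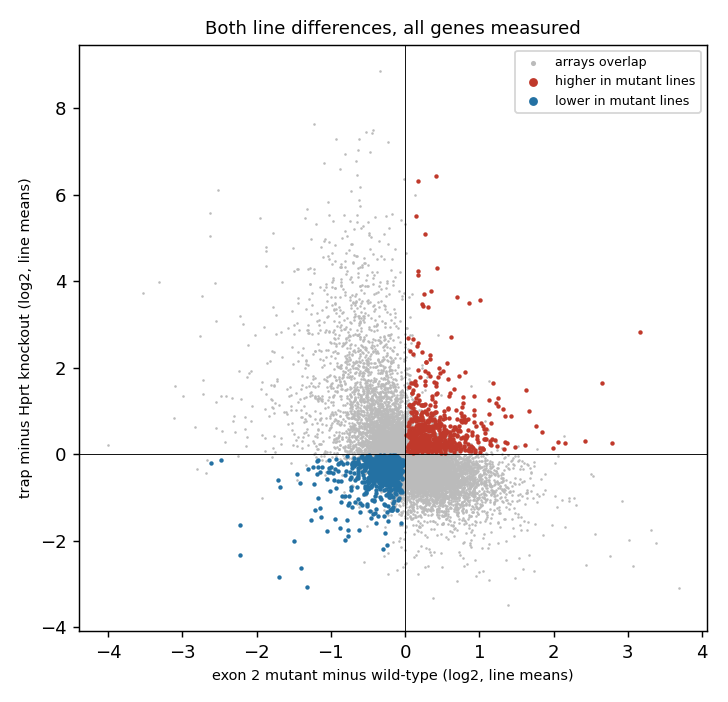
Difference of line means for every gene, exon 2 mutant minus wild-type on the x axis and trap minus Hprt knockout on the y axis, both in log2, with kept genes in colour. The 616 higher genes fill part of the upper right and the 868 lower genes part of the lower left, as the rule requires, and the higher genes with the largest y values, among them Mcpt8, Cxcl1 and Il33, have x values below 0.5.

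Other probe sets of the kept genes were examined as a description, since they share the arrays. Of 542 further probe sets of higher genes with a mean above the filter level, 434 had side means that differed the same way and 156 did not overlap, in the same direction. Of 489 for lower genes these numbers were 417 and 149. Most of these further probe sets thus did not meet the rule in the direction of their gene. The share over all probe sets is not given here. The kept genes lay on all chromosomes, with shares of 2.08% to 4.85% higher and 3.40% to 6.54% lower on the autosomes and X. Chromosome 5, which carries Gtf2i, had 35 higher and 74 lower among 1131 genes (3.09% and 6.54%). Of the 40 measured genes nearest to Gtf2i, in the gene order of GRCm38.p6, 2 were higher (Auts2 and Limk1) and 3 lower (Rabgef1, Tmem248 and 9030607J07Rik). On so few genes, these counts lie near the shares of all genes, 3.39% higher and 4.77% lower. The other Limk1 probe sets overlapped, with side means that differed the other way (-0.11 and -0.12). Auts2, a neurodevelopmental regulator, had line means of 8.56 in the exon 2 mutant and 8.36 in the trap line, against 7.79 in the Hprt knockout and 7.47 in wild-type (gap 0.48).

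At the edge of the rule, Igf2r and Zfp784 were kept with gaps that round to 0.00, and Prr22 and Ccdc141 were left out with overlaps that round to 0.00. Igf2r had 10.93 and 11.06 in the exon 2 mutant and 11.56 and 11.47 in the trap line, against 9.87 and 9.89 in the Hprt knockout and 10.90 and 10.93 in wild-type, so the exon 2 mutant and wild-type nearly touched. Ccdc141 had 6.20 and 5.90 in the exon 2 mutant and 6.01 and 6.24 in the trap line, against 5.90 and 5.78 in the Hprt knockout and 5.16 and 5.34 in wild-type, where the lowest mutant and the highest intact array met. Genes this close to the edge are separated by less than the spread between replicates.

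For scale, the same rule was applied to the split by Hprt label, trap and Hprt knockout against exon 2 mutant and wild-type. The split by Gtf2i kept 1484 genes (8.16%), 59 of them with a gap of at least 0.5 (0.324%). The split by Hprt kept 2172 (11.9%), 1572 higher (8.64%) and 600 lower (3.3%) in the Hprt-mutant lines, and 124 had a gap of at least 0.5 (0.682%), 60 higher (0.33%) and 64 lower (0.352%). The difference between these counts was not tested. Both splits use the same 8 arrays.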

How the data were processed

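Total RNA of 8 arrays was labelled with biotin and hybridised to Affymetrix arrays, per the labels' protocols. The deposited values are log2 intensities of 45101 probe sets. According to the submitters' processing notes they were computed with RMA (version not given in the sources used here). Since RMA gives all arrays the same distribution, a shift of most genes is not visible, and dim probe sets show compressed differences. Which arrays the authors normalized together was not stated. Array medians were 5.96 to 6.02, and the number of arrays limits the precision. Of the probe sets, 64 were controls, 34945 had 1 gene symbol in the platform annotation, 932 several and 9160 none. Probe sets of both last kinds stayed unnamed. By Entrez ID 34741 of the single-symbol probe sets matched RefSeq, and 0 symbols changed. For the 9010 genes with several probe sets the one with the highest mean was used.

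Gaps were computed without a filter. Tests used limma 3.58.1 in R 4.3.3 on 13812 genes, two-sided, with Benjamini-Hochberg adjustment and a threshold of 0.05. Mutant against intact lines was fitted with the line as a random block (duplicateCorrelation, consensus correlation 0.934), and contrasts within sides with 4 group means (4 residual degrees of freedom, 6.86 after moderation). The random-block fit had 6 residual degrees of freedom, counted from arrays and not from lines, and moderation added 3.04. P-values within sides measure only the spread between arrays of a line. The fits were also run on simulated data, whose outcome is not given here and lends no assurance to the results. Same-numbered replicates of different lines deviated together with correlations of -0.276 to 0.175, so the numbers do not pair the arrays.

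The genes, the 33 lists and the rules were chosen with earlier results of these data known. The lists come from general knowledge and are described by counts only. Named were Gtf2i, Hprt, the 15 largest gaps in each direction among genes with a mean above the filter level (clone and predicted names left out), up to 4 genes per list, the 2 genes on each side of the rule's edge and the 4 largest called differences in each direction per contrast within sides. Genes named beyond this were chosen after their values were seen. Promoters are RefSeq's, and 4 of the 6 motifs were added after the first results. Alternatives were cyclic loess, other probe sets, filters, a replicate block, and leaving out each array or line.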

Additional observations from a re-analysis of the deposited data

Results flagged for a closer look

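Among the 30 genes with the largest gaps, 17 had a difference in exon 2 mutant minus wild-type that differed from that in trap minus Hprt knockout, by limma's test of the difference itself at an adjusted p under 0.05. Of all 13812 genes tested, 9627 (69.7%) were called by the same test, so such a difference is not particular to these genes. The difference between both effects was positive in Mid1 (0.33), Trpm1 (1.01), Irak3 (0.47), Gli2 (0.32), Lama1 (0.50), Cubn (1.24), Rcsd1 (0.84), Krt18 (1.75), Cyp26a1 (0.55) and Fxyd3 (1.12). It was negative in Eno2 (-0.47), Ccng2 (-0.40), Tmem140 (-2.64), Irs1 (-2.93), Ampd3 (-0.55), Fgfbp1 (-0.58) and Jmjd4 (-0.28). Since all of these genes lay on the same side in both line pairs, the test concerns the size of the separation and not its direction.

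Among the 10092 probe sets with several gene symbols or none, which no comparison of genes used, 527 did not overlap between sides (5.22%). They were 182 higher and 345 lower in the mutant lines, and 7 and 5 had a gap of at least 0.5. Of the 64 control probe sets 2 were higher and 5 lower (10.9%), none with a gap of at least 0.5.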

How the results depend on the processing

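The counts of kept genes (616 higher, 868 lower, and 36 and 23 with a gap of at least 0.5) stayed within 1.5 times under cyclic loess, both other choices of probe set and the 40th percentile filter. Cyclic loess gave 787 higher and 730 lower genes, so the excess of lower over higher genes was reversed and depends on the normalization. None of the counts of kept genes dropped when an array or a line was left out, since fewer arrays leave less to overlap. Leaving out each array in turn gave 694 to 796 higher and 1010 to 1322 lower genes, and 36 to 40 and 24 to 30 with a gap of at least 0.5. The highest lower count was that without wild-type replicate 2. Without the exon 2 mutant line there were 2456 higher and 2622 lower genes, of which 325 and 110 had a gap of at least 0.5. Without the trap line there were 1896 higher and 2509 lower genes, of which 179 and 108 had a gap of at least 0.5. Without the wild-type line there were 3396 higher and 6227 lower genes, of which 1494 and 1005 had a gap of at least 0.5. Without the Hprt knockout line there were 4062 higher and 2932 lower genes, of which 349 and 395 had a gap of at least 0.5. With only genes whose mean was above the 60th percentile, which removes genes by construction, there were 373 higher and 351 lower genes, of which 17 and 7 had a gap of at least 0.5.

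Of the lists described first, primitive endoderm had 8 lower genes, 7 under cyclic loess, 8 and 9 with other probe sets, 8 without any single array, and 9, 11, 13 and 13 without the exon 2 mutant, trap, wild-type and Hprt knockout line. Pluripotency had 8 higher genes, 7 under cyclic loess, 8 with other probe sets, 8 to 9 without single arrays, and 9, 11, 10 and 18 without those lines in the same order. PI3K-AKT had 6 higher genes, 6 under cyclic loess, 5 with the probe set of largest SD and 4 with the mean of probe sets. Hypoxia and glycolysis had 5 higher genes, and 4, 5 and 4 in these settings in the same order. Immediate early genes had 6 lower, and 6, 6 and 5, and germ line genes had 5 lower, and 4, 5 and 5. Without the Hprt knockout line 22 of 30 feeder markers would be kept as lower, and without the wild-type line 28 as higher. These list settings were chosen after seeing the data.

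Mutant against intact lines called 0 genes in every setting with line as a random block and on line means, and 6951 with the spread within lines alone. The replicate block gave 0 calls there, and 6334, 9620 and 9361 calls for exon 2 mutant against trap, Hprt knockout against wild-type and the difference between line effects, against 6799, 9877 and 9627 without it. Leaving out each array gave 5223 to 6669, 9000 to 10004 and 9003 to 9427. With the 60th percentile filter Hprt knockout against wild-type gave 6143 calls and the difference between line effects 6045. Cyclic loess gave 4697 higher and 4729 lower calls for Hprt knockout against wild-type, where the values as deposited gave 6409 and 3468, and 4505 positive and 4871 negative for the difference between line effects, where they gave 5890 and 3737.

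Of 110 named genes 29 overlapped between sides in at least 1 setting, where a negative gap is an overlap. Under cyclic loess these were Etv4 (-0.10), Zfp352 (-0.099), Lhx1 (-0.038), Atf6 (-0.011), Map2k1 (-0.05), Fzd5 (-0.041), Axin1 (-0.038), Manf (-0.065), Scd2 (-0.001), Actb (-0.054), Peg12 (-0.019), Igf2r (-0.099), Rpl11 (-0.011), Dnaja1 (-0.098), Cirbp (-0.013), Srsf6 (-0.034), Il33 (-0.071), Piwil4 (-0.059). With the probe set of largest SD they were Etv4 (-0.85), Zfp352 (-0.019), Lhx1 (-0.18), Stmn2 (-0.15), Pom121 (-0.18), Smad5 (-0.023), Axin1 (-0.21), Pfkp (-0.44), Scd2 (-0.11), Actb (-0.47), Rps18 (-0.50), Dnaja1 (-0.25), Srsf6 (-0.25). With the mean of probe sets they were Etv4 (-0.31), Lhx1 (-0.073), Limk1 (-0.17), Pom121 (-0.071), Plcg1 (-0.14), Smad5 (-0.092), Axin1 (-0.08), Jund (-0.07), Plk2 (-0.038), Actb (-0.18), Rps18 (-0.087), Dnaja1 (-0.15), Srsf6 (-0.21), Clec14a (-0.14), Dpys (-0.28). The cause was not tested.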

Other observations

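Of 9 measured Y-linked genes 3 were lower in the mutant lines without overlap (33.3%, against 4.77% of all genes) and none was higher. Uty, Zfy2 and Sry overlapped. Uba1y, a Y-linked ubiquitin-activating enzyme, had 7.72 and 7.72 in the exon 2 mutant and 7.90 and 7.92 in the trap line, against 9.42 and 9.46 in the Hprt knockout and 8.47 and 8.55 in wild-type. Kdm5d, a histone demethylase, had 6.61 and 6.52 in the exon 2 mutant and 6.78 and 6.66 in the trap line, against 7.31 and 7.25 in the Hprt knockout and 6.96 and 6.94 in wild-type. Usp9y was the third, with both exon 2 mutant arrays and a trap array below the filter level. Eif2s3y, a translation factor subunit, overlapped, with 10.25 and 10.05 in the exon 2 mutant and 10.30 and 10.30 in the trap line, against 10.81 and 10.86 in the Hprt knockout and 10.26 and 10.32 in wild-type. Xist, the RNA that coats the inactive X chromosome, had 11.85 and 11.78 in the exon 2 mutant and 10.57 and 10.64 in the trap line, against 8.82 and 8.89 in the Hprt knockout and 11.91 and 11.82 in wild-type. Both Xist and the feeder markers were lowest in the Hprt knockout, and the part of feeder cells in these values was not tested.

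None of 41 cell cycle and mitosis genes and none of 32 respiratory chain genes was kept in either direction, and of 41 DNA replication and repair genes 1 was lower (2.44%, against 4.77% of all genes), which was Rfc3 (gap 0.15). Of 45 DNA methylation and chromatin genes 3 were higher (6.67%, against 3.39% of all genes) and 1 was lower (2.22%), the methyltransferase cofactor Dnmt3l (gap 0.02, difference -0.82). Eed, a subunit of Polycomb repressive complex 2, had line means of 12.51 in the exon 2 mutant and 12.45 in the trap line, against 12.05 in the Hprt knockout and 12.18 in wild-type, and the histone demethylase Kdm3a and the histone methyltransferase Ehmt2 had gaps of 0.22 and 0.15. Of 34 splicing and RNA-binding genes 1 was higher (2.94%), Ago2, and 4 were lower (11.8%), with the epithelial splicing regulator Esrp2 at 6.21 in the exon 2 mutant and 6.43 in the trap line, against 7.30 in the Hprt knockout and 6.73 in wild-type and the splicing factor Srsf2 at 12.25 in the exon 2 mutant and 12.42 in the trap line, against 12.82 in the Hprt knockout and 12.63 in wild-type. Of 17 ribosomal protein genes Rps18 and Rpl11 were higher (11.8%), by 0.12 and 0.07 between side means, and Rps18 overlapped with other probe sets and Rpl11 under cyclic loess. Of 19 p53 genes 2 were lower (10.5%) and none higher, Btg2 and Plk2. Plk2, a kinase induced by p53, was lower with line means of 10.25 in the exon 2 mutant and 10.73 in the trap line, against 11.06 in the Hprt knockout and 11.28 in wild-type.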
